A study of Mus musculus with 3 samples.

Results

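The glucocorticoid receptors and a set of genes that they regulate directly were followed in single cells of the mouse brain after a transient ischemic attack (TIA). The set holds 9 of the 32285 genes in the deposited count tables. These are the receptor genes Nr3c1 and Nr3c2 and the target genes Fkbp5, Tsc22d3, Zbtb16, Klf9, Hif3a, Sgk1 and Errfi1. They were found by symbol, and they were selected on measured values: their levels and changes in these same libraries were known when the set was put together. Levels and changes are therefore given as a description, and no test was made on them.

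The study asked which cells of the cortex respond to a TIA, here a 5 min closure of the middle cerebral artery by a filament under isoflurane. It used WT mice of the strain C57BL6J, young adult males by the study's account, in 3 groups: naive controls, mice at 24 h and mice at 3 d, the last both labelled as post stroke. The hemispheres were separated and freed of white matter and meninges, and the tissue was digested with papain. Cells that excluded propidium iodide were sorted and sequenced with the 10x Genomics 3′ assay. Each group is 1 library made from the pooled cells of 3 mice. With 1 library a group there is no replicate, so library and condition cannot be told apart, and both TIA libraries are compared with the same naive library. The sample labels and some figure legends of the study call the controls naive, with no operation named, while another legend gives sham, a surgery without the filament, as the comparison for these cells. Whether the control mice were operated or anaesthetised is thus not settled. If they were not, the effects of the TIA and of the operation or anaesthesia cannot be told apart in any ratio against naive.

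The naive, 24 h and 3 d libraries held 4804, 1619 and 5505 cells with 37987228, 12919691 and 48636436 unique molecular identifiers (UMIs, 1 per captured transcript). After cells with few genes or a high mitochondrial share were left out, 4018, 1225 and 4781 cells remained, with a median of 7750, 8123 and 7868 UMIs. The filter took 16.4%, 24.3% and 13.2% of the cells. Among the kept cells, the naive library shared 2 cell barcodes with the 24 h library and 7 with the 3 d library, and the TIA libraries shared 2 with each other.

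Cells were grouped by clustering and each cluster was named by a fixed list of markers. These names are a rebuilt grouping and not the authors' annotation. Of 14 clusters, 9 fell into 6 classes that were compared, which held 8627 of the 10024 kept cells (86.1%). The naive, 24 h and 3 d libraries held 974, 270 and 1212 microglia-like cells, 894, 239 and 1427 astrocyte-like cells and 232, 72 and 250 oligodendrocyte-like cells. They held 287, 229 and 591 endothelial-like cells, 159, 182 and 327 pericyte-like cells and 795, 112 and 375 neuroblast-like cells. The classes are called by the cell type alone from here on. Every marker of a class's own list was found in it in all 3 libraries, 8 for pericytes, 11 for neuroblasts and 10 for each other class.

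Glucocorticoids are steroid hormones of the adrenal cortex, corticosterone in the mouse, which enter cells and bind a receptor held in the cytoplasm by heat shock proteins. The bound receptor moves to the nucleus and switches on genes such as Fkbp5 and Tsc22d3. The brain has a pair of such receptors, a glucocorticoid receptor that responds mainly when hormone is high, under stress or at the daily peak, and a mineralocorticoid receptor that binds the same hormone more tightly.

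UMIs of a gene were summed over the cells of a class and divided by all UMIs of that class and library, which gives counts per 1000000 UMIs (CPM). A change is the log2 ratio of CPM against naive. Brackets give its 95% interval from an exact conditional binomial method, and intervals of levels are exact Poisson ones. These intervals cover counting error only and say nothing of differences between mice. A gene is called higher or lower in a comparison when it had at least 30 UMIs over both libraries and differed by at least 2-fold. Because the assay reads transcript ends, levels of different genes are not compared here, and promoters or isoforms of 1 gene are not separated.

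In glia and vessel cells the members called were all higher after TIA, and Fkbp5, Zbtb16 and, where it was measured, Hif3a were called in every one of these classes at both times. Some of these calls end under other choices. Without doublets Hif3a is lost in microglia at 24 h and in pericytes at 3 d. At resolution 1 it is lost in microglia at 24 h and in endothelial cells at both times. With a minimum of 100 UMIs it is lost in microglia and endothelial cells at both times, in oligodendrocytes at 24 h and in pericytes at 3 d. That minimum also ends the calls of Fkbp5 in pericytes and of Zbtb16 in microglia at 24 h. In cells low in markers of other classes Fkbp5 is lost in endothelial cells and pericytes, and Hif3a in these classes and in microglia. Zbtb16 is then lost in astrocytes at 24 h and in pericytes at 3 d. In microglia, 4 of 9 members were higher at 24 h (Fkbp5, Tsc22d3, Zbtb16 and Hif3a) and 0 lower, beside 2.39% and 2.64% of all 11515 genes measured. At 3 d, 4 of 9 were again higher and 0 lower, beside 1.71% and 0.959% of all genes. In astrocytes, 4 of 9 were higher at 24 h and 0 lower (2.95% and 6.35% of all genes), and 4 of 9 at 3 d with 0 lower (1.68% and 1%). The names were those of microglia at both times. Without doublets 6 of 9 were higher in astrocytes at 24 h, with Sgk1 and Errfi1 added, beside 3.28% of all genes.

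In oligodendrocytes, 6 of 9 members were higher at 24 h, among them Klf9, Sgk1 and Errfi1 beside Fkbp5, Zbtb16 and Hif3a, and 0 were lower, beside 3.67% and 6.81% of all genes. At 3 d, 5 of 9 were higher, without Errfi1, and 0 lower (4.62% and 1.19%). In endothelial cells, 4 of 9 were higher at 24 h (Fkbp5, Tsc22d3, Zbtb16 and Hif3a) and 0 lower (2.48% and 3.58%), and 3 of 9 at 3 d, without Tsc22d3, with 0 lower (3.53% and 0.96%). In pericytes, 3 of the 8 members measured were higher at 24 h (Fkbp5, Tsc22d3 and Zbtb16) and 0 lower (2.59% and 2.83%). At 3 d, 3 of 9 were higher there (Fkbp5, Zbtb16 and Hif3a) and 0 lower, beside 6.54% and 1% of all genes. The Hif3a call ends without doublets, and in cells low in markers of other classes 0 were higher at 3 d. Microglial markers in pericytes went from 461 CPM in naive to 1361 CPM at 3 d, and astrocyte markers from 735 to 1716 CPM. Their part in these calls was not tested.

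Among neuroblasts, the 24 h library held few cells (112). In them 0 of the 8 members measured were higher and 2 lower (Nr3c2 and Sgk1), beside 0.992% and 8.62% of all genes. At 3 d, 1 of 9 was higher (Hif3a) and 0 lower, beside 0.696% and 1.75%. All 3 of these calls end when doublets are left out, and Nr3c2 is then called higher at 3 d. The set was put together from these same contrasts, so nothing is read from the distance between its counts and the shares of all genes.

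The median log2 change over the members measured was 0.23 at 24 h and 0.80 at 3 d in microglia, 0.80 and 0.40 in astrocytes, and 1.80 and 1.04 in oligodendrocytes. It was 0.32 and 0.60 in endothelial cells, 0.50 and 0.75 in pericytes, and −0.39 and 0.33 in neuroblasts. Without doublets the 24 h median was 0.00 in neuroblasts over the 7 members then measured, and 1.31 in astrocytes. The 3 d median of astrocytes was then 0.71. In cells low in markers of other classes the median was 0.16 in endothelial cells at 24 h and 0.47 in microglia at 3 d. Pericytes at 3 d, with 2 members measured, then gave −0.09. With at least 100 UMIs microglia gave 0.08 at 24 h, and at resolution 1 endothelial cells gave 0.35 at 3 d. Neuroblasts gave −1.01 at 24 h and 0.16 at 3 d at resolution 0.2. Without the 5 richest cells they gave −1.61 at 24 h, where all genes gave −0.42. With the settings reported, the median over all genes measured lay between −0.04 and 0.06 in the 12 comparisons.

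**Figure D1:**
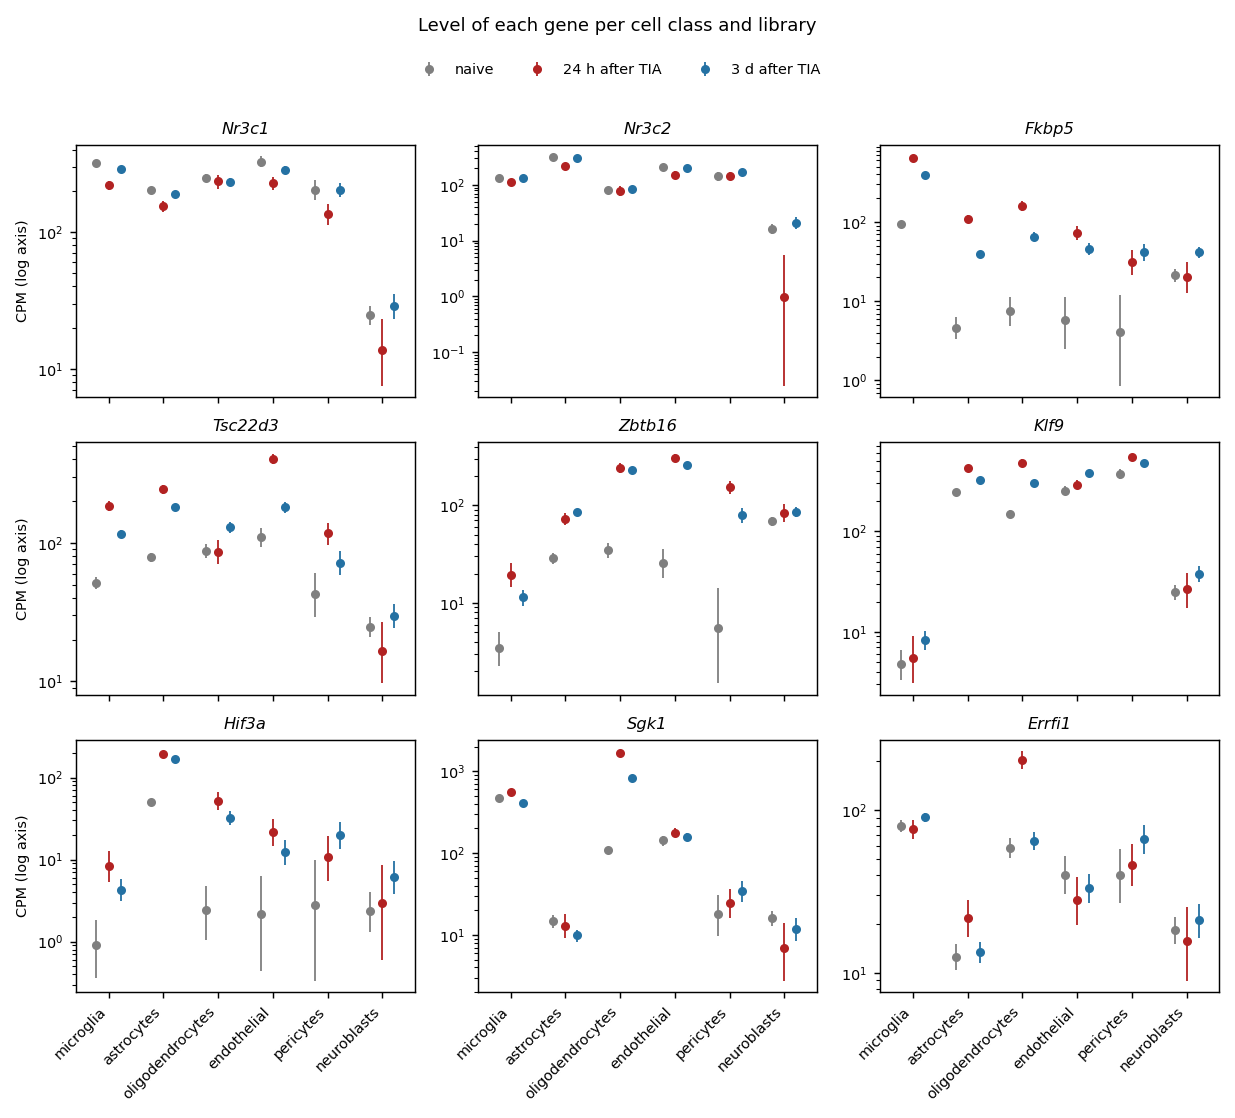
Level of each of the 9 genes (CPM, log axis) in the 6 cell classes of the naive, 24 h and 3 d libraries, with exact Poisson 95% intervals that cover counting error only. Fkbp5 in microglia stands at 94.6, 649 and 395 CPM, above the other classes in each library, and Sgk1 in oligodendrocytes at 108, 1697 and 838 CPM.

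Nr3c1 (ENSMUSG00000024431, chr18:39410545-39519421, minus strand, GRCm38) encodes the glucocorticoid receptor. It stood at 320, 220 and 289 CPM in microglia of the naive, 24 h and 3 d libraries, and at 203, 154 and 191 CPM in astrocytes. The 24 h level was the lowest in both classes, and its interval did not overlap those of the other libraries. The log2 change at 24 h was −0.54 (−0.67 to −0.41) in microglia and −0.40 (−0.55 to −0.24) in astrocytes, and at 3 d −0.14 (−0.22 to −0.07) and −0.08 (−0.17 to 0.00). None of these reached 2-fold.

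In endothelial cells Nr3c1 was at 328, 227 and 284 CPM, with a log2 change of −0.53 (−0.75 to −0.31) at 24 h. In pericytes it was at 204, 135 and 203 CPM, with −0.60 (−0.95 to −0.25) at 24 h. In oligodendrocytes the 3 libraries gave 250, 235 and 232 CPM with overlapping intervals, and the log2 change at 24 h was −0.09 (−0.29 to 0.11). Thus 5 of 6 classes lay below naive beyond counting error at 24 h, with no class past 2-fold, and at 3 d 2 of 6 did. The 5 include neuroblasts, whose log2 ratio without doublets was 0.22 (−0.73 to 1.07).

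Nr3c1 levels of the naive library ran from endothelial cells and microglia, whose intervals overlapped, over oligodendrocytes, pericytes and astrocytes, each overlapping the next, down to neuroblasts at 24.6 CPM. The share of naive cells with an Nr3c1 UMI was 92.7% in oligodendrocytes, 85.0% in microglia, 76.0% in astrocytes, 70.0% in endothelial cells and 52.8% in pericytes, against 9.69% in neuroblasts. Depth differed between these classes, with a median of 13417, 7785.5, 9334, 4643, 4294 and 7133 UMIs per cell in the same order. With each cell thinned to 3000 UMIs the shares were 51.2%, 58.5%, 42.5%, 57.8%, 40.5% and 4.59%, so oligodendrocytes no longer led.

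Thinning left out the cells under 3000 UMIs. In the naive, 24 h and 3 d libraries these were 23, 4 and 21 microglia, 26, 17 and 52 astrocytes, and 1, 2 and 0 oligodendrocytes. They were 51, 24 and 109 endothelial cells, 18, 11 and 72 pericytes, and 186, 18 and 44 neuroblasts. Median depth in the 24 h library was higher than in the other libraries in all 6 classes, with 9338.5 UMIs in microglia, 11495 in astrocytes, 16150.5 in oligodendrocytes, 5690 in endothelial cells, 5275 in pericytes and 8700.5 in neuroblasts. At 3 d it was 7666.5, 9307, 12901, 4263, 3906 and 8305 in the same order.

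Nr3c2 (ENSMUSG00000031618, chr8:76899442-77245012, plus strand) encodes the mineralocorticoid receptor. Astrocytes held the highest level in every library, 317, 222 and 310 CPM, with a log2 change of −0.51 (−0.64 to −0.39) at 24 h and −0.03 at 3 d. The 24 h value was low, and the naive and 3 d intervals overlapped. Endothelial cells stood at 209, 154 and 206 CPM, with −0.45 (−0.71 to −0.18) at 24 h, and microglia at 136, 113 and 136 CPM, with −0.27 (−0.46 to −0.08). The 24 h library was again the low one in both classes.

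Nr3c2 in pericytes was at 142, 143 and 170 CPM and in oligodendrocytes at 82.6, 77.4 and 85.3 CPM, and in both the intervals of the 3 libraries overlapped. In pericytes low in markers of other classes the direction turned at 3 d, from 0.25 to −2.40 (−4.18 to −0.93), on 19 naive and 5 TIA UMIs, too few for a call. The order of classes was the same in all libraries: astrocytes, endothelial cells, pericytes, microglia, oligodendrocytes and neuroblasts. Pericytes overlapped microglia in the naive and 24 h libraries and endothelial cells in the 24 h and 3 d libraries. A UMI of Nr3c2 was found in 83.0% of naive astrocytes, 49.1% of endothelial cells, 45.7% of oligodendrocytes, 42.4% of microglia, 30.8% of pericytes and 5.41% of neuroblasts. Thinned to 3000 UMIs these shares were 54.7%, 40.0%, 17.9%, 26.1%, 23.7% and 3.04%.

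In neuroblasts Nr3c2 had 94, 1 and 71 UMIs, which is 16.1, 0.979 and 21.0 CPM. The 24 h library was low, its log2 change was −4.04 with a wide interval (−9.36 to −1.52), and the naive and 3 d intervals overlapped. Cells called doublets held 66 of the 94 naive UMIs, and without doublets the counts were 28, 1 and 45 UMIs, with a log2 change of −2.44 (−7.80 to 0.15) at 24 h and 1.45 (0.74 to 2.19) at 3 d. The call at 24 h rests on 1 UMI in the TIA library, and without doublets it ends, since fewer than 30 UMIs remain, while the 3 d value passes 2-fold.

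Fkbp5 (ENSMUSG00000024222, chr17:28399094-28517527, minus strand) encodes FKBP51, a cochaperone that lowers the receptor's affinity for hormone and so closes a feedback loop. Microglia held 735, 1770 and 3956 UMIs of it in the naive, 24 h and 3 d libraries, or 94.6, 649 and 395 CPM. The 24 h library was highest and naive lowest, with no overlap. The log2 change was 2.78 (2.65 to 2.90) at 24 h and 2.06 (1.95 to 2.18) at 3 d, and the step from 24 h to 3 d was −0.72 (−0.80 to −0.63).

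In astrocytes Fkbp5 was at 41, 313 and 551 UMIs, or 4.61, 110 and 39.0 CPM, and in oligodendrocytes at 25, 192 and 229 UMIs, or 7.59, 160 and 65.8 CPM. Both classes had the same order, 24 h above 3 d above naive, with no overlap of intervals. The log2 change in astrocytes was 4.58 (4.10 to 5.08) at 24 h and 3.08 (2.62 to 3.58) at 3 d. In oligodendrocytes it was 4.40 (3.79 to 5.06) and 3.11 (2.52 to 3.77). From 24 h to 3 d the level changed by −1.50 (−1.70 to −1.29) in astrocytes and −1.28 in oligodendrocytes, also beyond counting error.

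Endothelial cells had 8, 94 and 126 UMIs of Fkbp5, or 5.74, 73.3 and 46.0 CPM, and pericytes 3, 32 and 62 UMIs, or 4.15, 31.5 and 41.6 CPM. Both TIA libraries lay above naive in each class without overlap, and the TIA libraries overlapped each other in pericytes only. The log2 change was 3.68 (2.64 to 4.93) and 3.00 (1.98 to 4.25) in endothelial cells. It was 2.93 (1.25 to 5.28) and 3.33 (1.71 to 5.64) in pericytes, where the naive value rests on 3 UMIs.

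In neuroblasts Fkbp5 was at 21.4, 20.6 and 41.7 CPM. Naive and 24 h overlapped, with a log2 ratio of −0.06 (−0.80 to 0.62), and the 3 d value of 0.97 (0.61 to 1.32) lay just under 2-fold. Without doublets it was 0.33 (−0.10 to 0.77) at 3 d.

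The share of cells with an Fkbp5 UMI in the naive, 24 h and 3 d libraries was 42.9%, 94.8% and 77.5% in microglia, 3.36%, 50.2% and 19.6% in astrocytes, and 5.60%, 77.8% and 46.4% in oligodendrocytes. It was 2.79%, 28.8% and 10.8% in endothelial cells, 1.89%, 13.7% and 11.3% in pericytes, and 11.3%, 13.4% and 17.3% in neuroblasts. The lowest share was that of pericytes in the naive and neuroblasts in the 24 h library. Thinned to 3000 UMIs, microglia gave 22.5%, 78.4% and 57.1%, astrocytes 0.927%, 23.0% and 9.04%, and oligodendrocytes 1.77%, 34.5% and 16.8%. Neuroblasts gave 5.40%, 6.17% and 7.50%, so at 24 h the thinned shares of astrocytes and oligodendrocytes were above that of neuroblasts and in the naive library below it.

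The order of Fkbp5 levels at 24 h was microglia, oligodendrocytes, astrocytes, endothelial cells, pericytes and neuroblasts, and only the last pair overlapped. In the naive library microglia led, neuroblasts came next, and the other 4 classes, between 7.59 and 4.15 CPM, each overlapped their neighbour.

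Since Fkbp5 is abundant in microglia, microglial transcripts found in other classes bear on its low levels. All 10 microglial markers were found in each other class and library, with the exception of Fcrls at 0 in neuroblasts at 24 h. Their summed level in the naive, 24 h and 3 d libraries was 922, 368 and 643 CPM in astrocytes, 491, 499 and 786 in oligodendrocytes, and 996, 382 and 1447 in endothelial cells. It was 461, 314 and 1361 CPM in pericytes and 780, 164 and 628 in neuroblasts.

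A level in step with these markers, which is the level Fkbp5 would have if it came with them in the ratio measured in microglia of the same library, was computed after the values had been seen. It was 3.06, 9.48 and 10.0 CPM in astrocytes, where 4.61, 110 and 39.0 were measured, and 1.63, 12.9 and 12.3 CPM in oligodendrocytes, where 7.59, 160 and 65.8 were measured. In endothelial cells it was 3.30, 9.86 and 22.6 CPM, and in pericytes 1.53, 8.11 and 21.2 CPM beside 4.15, 31.5 and 41.6 measured. These levels take the profile of microglia as fixed, and the part of microglial transcripts in the changes was not tested.

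Cells called doublets held 25 of the 41 naive astrocyte UMIs of Fkbp5 and 12 of the 25 in oligodendrocytes. They were 3.02% of naive and 0.418% of 24 h astrocytes, and 6.03% and 1.39% of oligodendrocytes. Leaving them out thus changes the 24 h ratios mainly on the naive side. Without doublets, naive astrocytes stood at 1.92 CPM, and the log2 change was 5.82 (5.09 to 6.64) at 24 h and 4.04 at 3 d. In oligodendrocytes it was 5.15 and 3.88. At 3 d doublets held 58 of the 126 endothelial and 28 of the 62 pericyte UMIs, and without them the 3 d change was lower, though past 2-fold, at 2.59 (1.40 to 4.09) in the former and 2.66 (0.99 to 5.00) in the latter. In cells low in markers of other classes, astrocytes had 1 naive UMI against 167 at 24 h, a log2 change of 7.99 (5.49 to 13.30). Endothelial cells and pericytes chosen in this way held 1, 21 and 9 and 1, 14 and 9 UMIs of Fkbp5, too few for a call, with log2 values of 4.11 and 2.14 in the former and 2.13 and 2.69 in the latter.

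The astrocyte clusters had different shares in the libraries: clusters 2 and 4 held 467 and 324 of the 894 naive cells, 100 and 117 of 239 at 24 h, and 631 and 647 of 1427 at 3 d. The log2 change of Fkbp5 at 24 h was 4.08 in cluster 2, 6.24 in cluster 4 and 4.17 in cluster 11, and at 3 d 2.67, 4.54 and 3.25. Among microglia, cluster 0 stood at 99.1, 759 and 392 CPM and cluster 7, led by the cytokine genes Cxcl10 and Ccl12, at 65.6, 414 and 402 CPM. The change was 2.94 at 24 h and 1.98 at 3 d in cluster 0, and 2.66 and 2.62 in cluster 7.

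Tsc22d3 (ENSMUSG00000031431, chrX:140539528-140600659, minus strand) encodes GILZ, a leucine zipper protein that restrains inflammatory transcription. It was at 51.6, 185 and 116 CPM in microglia and 79.0, 245 and 182 CPM in astrocytes, again with 24 h highest, 3 d between and no overlap. Its log2 change was 1.84 (1.65 to 2.03) and 1.17 (1.01 to 1.34) in microglia, and 1.63 (1.48 to 1.78) and 1.20 (1.08 to 1.32) in astrocytes. In microglial cluster 0 it was 2.06 and 1.11, and in cluster 7, which held 120 of the naive, 67 of the 24 h and 306 of the 3 d microglia, 1.00 (0.60 to 1.40), just under 2-fold, and 0.90 (0.56 to 1.25).

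Endothelial cells held 110, 405 and 181 CPM of Tsc22d3, the highest level of any class at 24 h. The change was 1.88 (1.62 to 2.15) at 24 h and 0.72 (0.46 to 0.99) at 3 d, past 2-fold at 24 h only, and the step between the TIA libraries was −1.16 (−1.34 to −0.98). Pericytes held 42.8, 117 and 71.8 CPM, with 1.45 (0.87 to 2.07) at 24 h. In pericytes low in markers of other classes, of which 20, 50 and 33 remained, the 24 h value was 0.91 (−0.36 to 2.44), under 2-fold.

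Oligodendrocytes did not share this pattern. Tsc22d3 was there at 87.5, 86.6 and 130 CPM, with a log2 ratio of −0.02 (−0.35 to 0.31) at 24 h and 0.57 (0.35 to 0.78) at 3 d. Naive and 24 h overlapped, and 3 d was the high library. Neuroblasts held 24.6, 16.6 and 29.9 CPM, all overlapping. The share of cells with a UMI at 24 h was 75.1% in endothelial cells, 69.0% in astrocytes, 65.6% in microglia, 62.5% in oligodendrocytes and 40.1% in pericytes, against 11.6% in neuroblasts. The thinned shares were 63.8%, 43.7%, 37.2%, 21.9%, 28.9% and 4.06%.

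Zbtb16 (ENSMUSG00000066687, chr9:48654297-48836222, minus strand) encodes the zinc finger repressor PLZF. Endothelial cells held 25.8, 307 and 260 CPM and oligodendrocytes 34.6, 239 and 232 CPM. Both TIA libraries were above naive in each class without overlap, and they overlapped each other, though the step between them in endothelial cells was −0.24 (−0.42 to −0.05). The log2 change was 3.57 (3.08 to 4.10) and 3.33 (2.85 to 3.86) in endothelial cells, and 2.79 (2.47 to 3.11) and 2.74 (2.46 to 3.04) in oligodendrocytes.

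In pericytes Zbtb16 had 4, 155 and 118 UMIs, or 5.53, 153 and 79.2 CPM, with 24 h highest and no overlap. The log2 change was 4.79 (3.40 to 6.68) and 3.84 (2.45 to 5.74). In pericytes low in markers of other classes it had 1, 52 and 7 UMIs, with 4.02 (1.48 to 9.35) at 24 h and too few UMIs for a call at 3 d. Astrocytes stood at 28.5, 72.4 and 85.9 CPM, with 1.34 (1.07 to 1.61) and 1.59 (1.39 to 1.79). The 3 d level lay above the 24 h level there, by 0.25 (0.03 to 0.47), the one pair called higher at 24 h in which this held beyond counting error. By cluster it stood at 22.4, 69.7 and 66.1 CPM in cluster 2 and at 29.8, 72.5 and 97.1 CPM in cluster 4. In astrocytes low in markers of other classes the 24 h change was 0.96 (0.54 to 1.38), just under 2-fold.

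Microglia held little Zbtb16, at 3.47, 19.4 and 11.4 CPM, with a log2 change of 2.48 (1.79 to 3.21) and 1.71 (1.10 to 2.38). In cluster 0 it was 2.96 and 1.76, and in cluster 7, with 8, 12 and 46 UMIs, 0.86 (−0.55 to 2.36) and 1.06 (−0.04 to 2.35), within counting error of naive. Neuroblasts had the highest naive level of all classes, and stood at 68.4, 84.2 and 85.8 CPM, with 0.30 (−0.05 to 0.64) and 0.33 (0.10 to 0.55). The naive level of neuroblasts did not overlap that of any other class, and at 24 h endothelial cells, oligodendrocytes and pericytes were all above them.

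The share of cells with a Zbtb16 UMI went from 9.06% in naive to 69.9% in 24 h endothelial cells, from 33.6% to 90.3% in oligodendrocytes and from 2.52% to 46.7% in pericytes. It went from 21.4% to 49.0% in astrocytes and from 30.6% to 42% in neuroblasts. Microglia were lowest, with 2.36% and 11.9%. Thinned, endothelial cells gave 6.57% and 53.7%, oligodendrocytes 9.47% and 47.6%, pericytes 1.66% and 31.7%, and microglia 1.01% and 4.78%. Neuroblasts gave 16.9% and 19.4%, close to each other once depth was equal.

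Klf9 (ENSMUSG00000033863, chr19:23141226-23168134, plus strand) encodes a Krüppel-like transcription factor. Pericytes held 372, 544 and 472 CPM, astrocytes 243, 424 and 320 CPM, and endothelial cells 253, 289 and 383 CPM. These classes differed from naive by less than 2-fold, with a log2 ratio of 0.55 (0.34 to 0.77) and 0.35 (0.14 to 0.55) in pericytes, 0.80 (0.70 to 0.91) and 0.40 (0.32 to 0.47) in astrocytes, and 0.19 (−0.02 to 0.41) and 0.60 (0.43 to 0.78) in endothelial cells.

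Oligodendrocytes were the class in which Klf9 was called. Its level was 148, 478 and 304 CPM, with no overlap, and the log2 change was 1.69 (1.52 to 1.87) at 24 h and 1.04 (0.88 to 1.20) at 3 d. With median-ratio scaling the 3 d value was 0.99, just under 2-fold. Microglia were lowest in every library, at 4.76, 5.50 and 8.29 CPM.

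In neuroblasts Klf9 was at 24.6, 26.4 and 37.6 CPM. The 24 h value came mostly from few cells, as 5 cells held 92.6% of its UMIs. A UMI was found in 81.7%, 89.1% and 85.6% of astrocytes and in 74.1%, 97.2% and 92.4% of oligodendrocytes, against 3.29%, 4.81% and 5.28% of microglia. The thinned shares in oligodendrocytes were 33.4%, 72.7% and 55.3%, and in microglia 1.42%, 1.57% and 2.24%.

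Hif3a (ENSMUSG00000004328, chr7:17031507-17062427, minus strand) encodes a member of the hypoxia-inducible factor family. Astrocytes held the highest level in each library, 50.1, 194 and 170 CPM, without overlap. Against naive the log2 change was 1.95 (1.77 to 2.13) at 24 h and 1.76 (1.61 to 1.91) at 3 d. A UMI was found in 34.3%, 77.8% and 69.0% of astrocytes, and in 14.3%, 42.3% and 37.6% after thinning.

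Oligodendrocytes held 2.43, 52.4 and 32.4 CPM of Hif3a, with 24 h above 3 d above naive, and a log2 change of 4.43 (3.37 to 5.70) and 3.74 (2.71 to 4.99). The other classes held few UMIs. Microglia had 7, 23 and 43, with 3.23 (1.96 to 4.69) and 2.25 (1.09 to 3.65), and endothelial cells 3, 28 and 34, with 3.34 (1.65 to 5.71) and 2.53 (0.86 to 4.88). In both the TIA libraries lay above naive without overlap, and at 24 h a UMI was found in 7.04% of microglia and 9.61% of endothelial cells against 1.79% of neuroblasts. The microglial sum at 24 h just reaches 30 UMIs and that call ends without doublets, with 6 and 21 UMIs, and in cells low in markers of other classes, with 6 and 18. In endothelial cells low in such markers 0, 7 and 4 UMIs remained, too few for a call. At resolution 1 the microglial call at 24 h and both endothelial calls of Hif3a also end, while those of astrocytes and oligodendrocytes hold. The microglial call at 3 d ends in cells low in markers of other classes and with a minimum of 100 UMIs. That minimum also ends the oligodendrocyte call at 24 h.

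In pericytes Hif3a had 2, 11 and 30 UMIs. The 24 h sum stayed under 30 UMIs and was not called, and at 3 d the log2 change was 2.86 (0.89 to 5.98). Neuroblasts had 14, 3 and 21 UMIs, with 1.38 (0.33 to 2.46) at 3 d. Both 3 d calls end without doublets, when 0, 11 and 5 UMIs remain in pericytes and 4, 3 and 4 in neuroblasts. Without the 5 cells richest in it, the 3 d value in pericytes was 0.69 and in neuroblasts 0.82.

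Sgk1 (ENSMUSG00000019970, chr10:21882184-21999903, plus strand) encodes a kinase that regulates ion channels and transporters downstream of corticosteroids and growth factors. Oligodendrocytes held 357, 2039 and 2917 UMIs of it, or 108, 1697 and 838 CPM. The 24 h library was highest and naive lowest, with no overlap. The log2 change was 3.97 (3.81 to 4.13) at 24 h and 2.95 (2.79 to 3.11) at 3 d, and from 24 h to 3 d it was −1.02 (−1.10 to −0.94). A UMI was found in 59.5%, 98.6% and 94.0% of oligodendrocytes, and in 25.7%, 98.3% and 79.0% after thinning.

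In the other classes Sgk1 was not called higher. Microglia, the highest class in the naive library, stood at 473, 553 and 415 CPM, with log2 ratios of 0.23 (0.14 to 0.31) and −0.19 (−0.25 to −0.13). The 3 libraries did not overlap, and all lay within 2-fold. Endothelial cells stood at 143, 179 and 160 CPM, with 0.32 (0.04 to 0.60) at 24 h, and pericytes at 18, 24.6 and 34.2 CPM, with 0.93 (0.03 to 1.93) at 3 d. The 3 d value in pericytes was 0.21 without doublets.

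Astrocytes held 14.6, 13 and 9.84 CPM of Sgk1, with log2 ratios of −0.17 (−0.74 to 0.37) and −0.57 (−0.93 to −0.21). The level in step with microglial markers was 15.3, 8.08 and 10.5 CPM, close to the measured one in the naive and 3 d libraries. Doublets held 101 of the 130 naive UMIs. They were 27 of the 894 naive and 1 of the 239 24 h astrocytes, so the 24 h ratio without doublets differs mainly on the naive side. Without them the level was 3.48, 10.3 and 5.68 CPM and the log2 ratio turned to 1.56 (0.77 to 2.36) at 24 h, which makes a call, and 0.71 (0.07 to 1.37) at 3 d. With each cell weighted equally the 24 h value was 1.28. The direction also differed between clusters: cluster 2 gave −0.63 (−1.43 to 0.10) and −0.69 (−1.10 to −0.28), and cluster 4, with 9, 18 and 36 UMIs, gave 2.17 (0.95 to 3.51) and 0.98 (−0.10 to 2.22).

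Neuroblasts had 93, 7 and 40 UMIs of Sgk1, or 15.9, 6.85 and 11.8 CPM, with −1.21 (−2.57 to −0.11) at 24 h. The level in step with microglial markers was 12.9, 3.61 and 10.3 CPM. Doublets held 54 of the 93 naive UMIs, and without them the log2 ratio was −0.11 at 24 h and 0.01 at 3 d, which ends the call. A UMI was found in 6.04%, 5.36% and 6.67% of neuroblasts and in 5.26%, 9.62% and 6.38% of astrocytes, and after thinning in 3.14%, 1.54% and 2.73% and in 2.03%, 2.54% and 2.33%.

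The order of Sgk1 levels was microglia, endothelial cells and oligodendrocytes in the naive library, and oligodendrocytes, microglia and endothelial cells in both TIA libraries, with no overlap among these 3 classes. Pericytes, astrocytes and neuroblasts were lowest, each overlapping its neighbour in level in the naive and 24 h libraries. At 24 h the highest and lowest class differed 248-fold.

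Errfi1 (ENSMUSG00000028967, chr4:150853919-150868892, plus strand) encodes an inhibitor of epidermal growth factor receptor signalling. Oligodendrocytes held 58.6, 204 and 64.9 CPM. The 24 h library stood apart, naive and 3 d overlapped, and the log2 change was 1.80 (1.52 to 2.08) at 24 h and 0.15 (−0.14 to 0.43) at 3 d. From 24 h to 3 d it was −1.65 (−1.92 to −1.39). A UMI was found in 50%, 81.9% and 52.0% of these cells, and in 15.9%, 43.6% and 17.3% after thinning.

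Errfi1 in astrocytes was at 12.6, 21.8 and 13.4 CPM, with 0.79 (0.32 to 1.25) at 24 h, or 1.05 without doublets, which is past 2-fold. Microglia held 79.9, 76.3 and 90.2 CPM, with −0.07 at 24 h and 0.17 (0.03 to 0.32) at 3 d. Endothelial cells held 40.2, 28.1 and 33.2 CPM, pericytes 40.1, 46.3 and 66.4 CPM and neuroblasts 18.3, 15.7 and 21.0 CPM. Intervals of naive and both TIA libraries overlapped in these 3 classes, though the ratio in pericytes at 3 d, 0.73 (0.12 to 1.38), lay above 0. In endothelial cells low in markers of other classes the direction turned at 3 d, from −0.27 to 1.07 (−0.15 to 2.50), on 7 naive and 30 TIA UMIs, which makes a call.

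**Figure D2:**
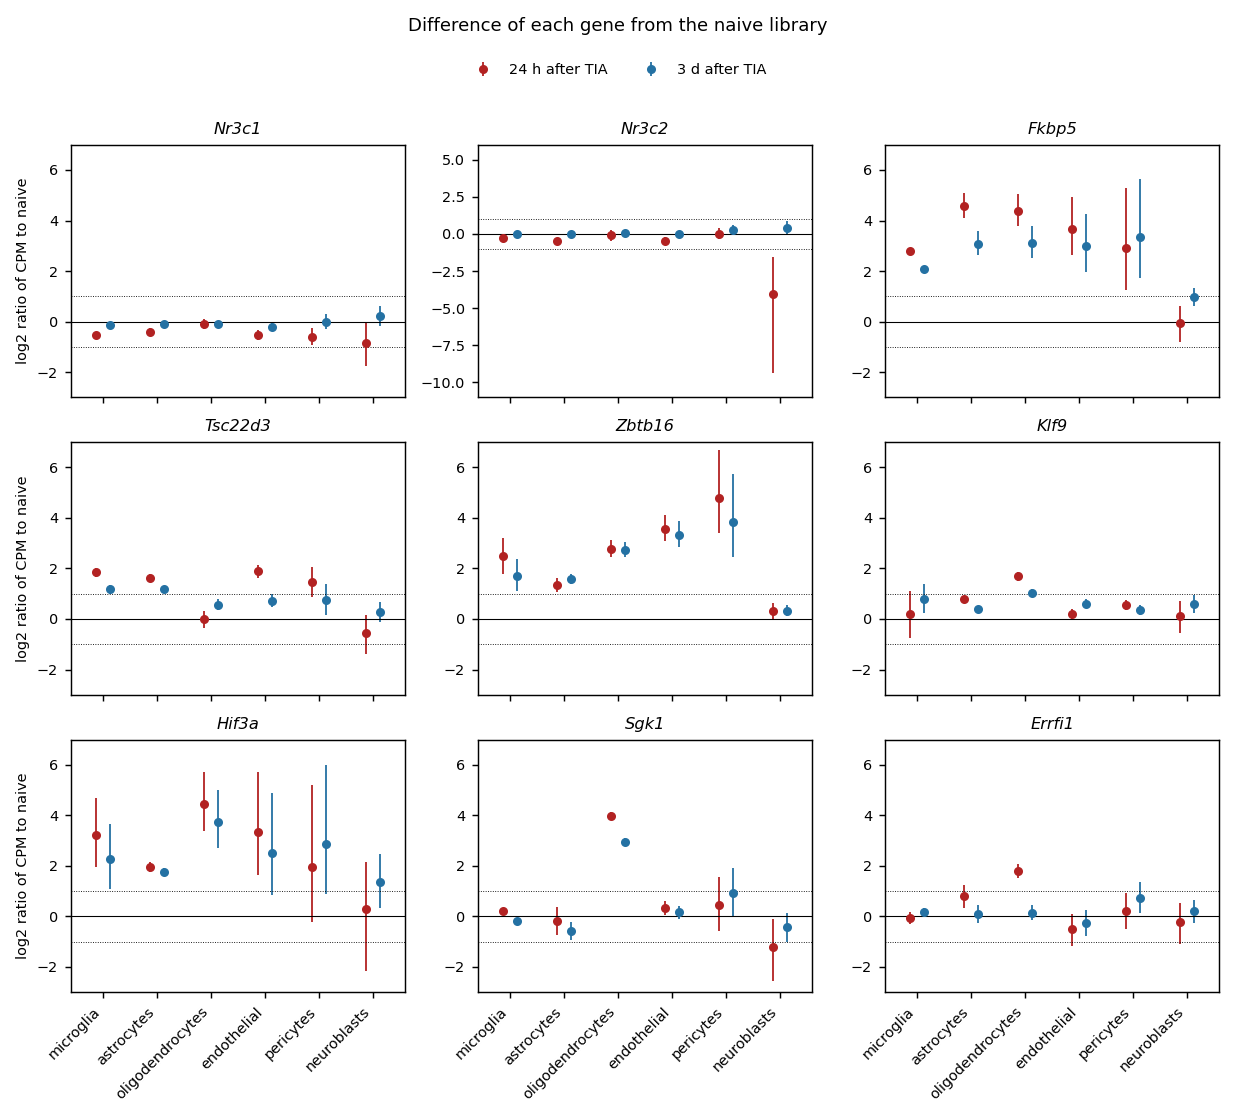
Log2 ratio of CPM against the naive library at 24 h and at 3 d for each gene and class, with exact conditional 95% intervals that cover counting error only; dotted lines mark 2-fold, and the Nr3c2 panel has an axis of its own. Fkbp5 in astrocytes lies at 4.58 and 3.08, and Nr3c1 at 24 h lies below 0 in all 6 classes, within 2-fold. Its interval holds 0 in oligodendrocytes and extends past 2-fold in neuroblasts, where the value is above 0 without doublets.

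Most pairs of a gene and a class that were called higher at 24 h were lower again at 3 d. Of the 54 pairs of a member and a class, 24 had their highest level at 24 h, 20 at 3 d and 10 in the naive library, beside 34.8%, 36.2% and 29% of the pairs of any gene with at least 30 UMIs and a class. All 24 were pairs of the 7 target genes, and in 23 of the 42 target pairs the level ran from 24 h over 3 d down to naive, beside 20.6% of the pairs of all genes. Of the 21 pairs called higher at 24 h, 18 were lower at 3 d than at 24 h beyond counting error, 2 had an interval that held 0 and 1 was higher. Of the 1520 pairs of any gene called higher at 24 h, 65.2% were lower at 3 d in this way. Pairs chosen for a high 24 h value tend to be lower at another time by that choice alone. The pair with an interval holding 0 were Fkbp5 in pericytes, at 0.40 (−0.24 to 1.06), and Zbtb16 in oligodendrocytes, at −0.04 (−0.24 to 0.16).

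Neuroblasts of the 24 h library held fewer transcripts of other classes than the naive ones. Summed astrocyte markers were at 931, 415 and 1044 CPM in the naive, 24 h and 3 d libraries, Slc1a2 the most abundant and 10 of 10 found in each. Oligodendrocyte markers were at 209, 87.1 and 130 CPM, with Cldn11 at 0 at 24 h. Endothelial markers were at 130, 15.7 and 22.8 CPM, with Cdh5 and Tek at 0 at 24 h, and pericyte markers at 61.9, 12.7 and 36.7 CPM, with Abcc9, Higd1b and Notch3 at 0 at 24 h. Scrublet called 41, 0 and 14 doublets among the 795, 112 and 375 neuroblasts.

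Nr3c1, Nr3c2 and Sgk1 of neuroblasts moved the same way as these markers at 24 h. Nr3c1 stood there at 24.6, 13.7 and 28.7 CPM, with −0.84 (−1.75 to −0.05) at 24 h, and at 11.8, 13.7 and 15.9 CPM without doublets, a log2 ratio of 0.22 at 24 h. Doublets held 82 of its 144 naive UMIs. The part of other cells' transcripts in these neuroblast values was not tested.

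The wider pathway was described by 4 further lists. They too were chosen with earlier results of these data known. Nothing is therefore read from the distance between their counts and the shares of all genes. Of 24 other glucocorticoid target genes, 15 of the 20 measured in oligodendrocytes were higher at 24 h and 0 lower, with a median log2 change of 1.68, beside 3.67% and 6.81% of all genes. At 3 d 14 of 19 were higher and 0 lower, with a median of 1.43, beside 4.62% and 1.19%. From naive to 3 d, microglial markers in oligodendrocytes went from 491 to 786 CPM and astrocyte markers from 438 to 646. Endothelial markers went from 78.4 to 157 CPM, pericyte markers from 24.6 to 109 and neuroblast markers from 237 to 220. Doublets were 6.03% of these cells in naive and 8.8% at 3 d. The part of other cells' transcripts in the values of these targets was not tested. The cell cycle inhibitor Cdkn1a was the highest at both times, at 0.304, 739 and 31.3 CPM in the naive, 24 h and 3 d libraries, from 1, 888 and 109 UMIs, or 11.25 and 6.69 on the log2 scale. The lowest were Mertk at 24 h (−0.53) and Glul at 3 d (−0.59). In astrocytes 8 of 20 were higher at 24 h and 0 lower, and 3 of 21 at 3 d with 1 lower, with medians of 0.75 and 0.40, beside 2.95% and 6.35% of all genes at 24 h and 1.68% and 1% at 3 d. Cdkn1a, with 10, 303 and 95 UMIs there, was highest at 24 h (6.57) and the lipid droplet gene Plin4, with 2, 32 and 48, at 3 d (3.92), and the lowest were Ehd3 (0.16) and Cdkn1c (−2.08).

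In endothelial cells 8 of 18 of these targets were higher at 24 h and 1 lower, and 7 of 20 and 0 at 3 d, with medians of 0.82 and 0.55, beside 2.48% and 3.58% of all genes at 24 h and 3.53% and 0.96% at 3 d. The iron-binding protein gene Lcn2 was highest, at 5.62 and 3.29, and Cdkn1c lowest, at −1.40 and −0.71. In pericytes 8 of 16 were higher and 2 lower at 24 h, the metallothionein genes Mt1 and Mt2, and 8 of 17 and 0 at 3 d, with medians of 0.98 and 0.85, beside 2.59% and 2.83% of all genes at 24 h and 6.54% and 1% at 3 d. Angptl4, an inhibitor of lipoprotein lipase, was highest in pericytes with 1, 248 and 38 UMIs, or 7.47 and 4.21, and Mt2 (−1.22) and Dusp1 (−0.45) lowest. The 8 higher at 3 d were Per1, Ddit4, Cebpd, Fam107a, Klf15, Glul, Mertk and Angptl4, of which Per1, Ddit4, Cebpd, Klf15 and Angptl4 were also higher at 24 h. Astrocyte markers in pericytes were at 735, 163 and 1716 CPM, Slc1a2 the most abundant, with 9, 7 and 10 of 10 found, Gfap at 0 in naive and Aqp4, Gjb6 and Agt at 0 at 24 h. Their part and that of microglial transcripts in the pericyte values was not tested.

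In microglia 4 of 16 of the other targets were higher and 1 lower at 24 h, and 2 of 17 and 0 at 3 d, with medians of 0.21 and 0.37, beside 2.39% and 2.64% of all genes at 24 h and 1.71% and 0.959% at 3 d. Ddit4, an inhibitor of mTOR signalling, was highest at 7.21, 122 and 64.8 CPM, or 4.08 and 3.17, and Cdkn1c (−1.31) and Arrdc2 (−0.22) lowest. In neuroblasts 0 of 14 were higher and 3 lower at 24 h (Per1, Fam107a and Mertk), and 0 of 16 and 1 at 3 d, with medians of −0.25 and 0.09, beside 0.992% and 8.62% of all genes and then 0.696% and 1.75%. The values there ran from Mertk at −2.55 to Ddit4 at 0.63 at 24 h and from Cdkn1a at −1.42 to Bcl6 at 0.98 at 3 d.

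The 8 receptor chaperones and cochaperones were all measured in every class, with 0 called higher and 1 lower in 12 comparisons, Dnajb1 in pericytes at 24 h (−1.01). Over these comparisons 0.696% to 6.54% of all genes were higher and 0.959% to 8.62% lower. Their medians ran from −0.64 in pericytes at 24 h to 0.17 in astrocytes at 24 h. The highest single value was 0.53, of Dnajb1 in oligodendrocytes at 24 h, where Stip1 was lowest at −0.96. Fkbp4, a cochaperone related to Fkbp5 that favours receptor activity, was at 45.4, 49.9 and 44.6 CPM in microglia and 40.7, 51.3 and 41.2 CPM in astrocytes. Of 8 coactivators and corepressors, 0 were called in either direction in the 12 comparisons. They ran from Ncoa3 in neuroblasts at 24 h (−0.69) to Ncoa3 in pericytes at 3 d (0.96).

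Of 6 genes of steroid access and metabolism, at most 4 were measured in a comparison. Hsd11b1, whose enzyme regenerates active hormone, was found mainly in astrocytes, at 95.3, 114 and 89.8 CPM, and Hsd11b2, whose enzyme inactivates it, had at most 2 UMIs in any class and library. Abcb1a, a drug and steroid efflux pump, was found mainly in endothelial cells, at 1516, 2011 and 1699 CPM. The calls in this list were Abcb1a higher in oligodendrocytes at 3 d (2.33), where endothelial markers were also higher, at 78.4, 9.99 and 157 CPM, and Hsd11b1 and Abcb1a lower in neuroblasts at both times. That is 1 of 2 measured in oligodendrocytes, beside 4.62% of all genes, and 2 of 3 and 2 of 4 in neuroblasts, beside 8.62% and 1.75%. The largest drops there were Hsd11b1 at 24 h (−3.18) and Abcb1a at 3 d (−3.12). Astrocyte markers were lower in neuroblasts at 24 h only, and endothelial markers at both times, at 130, 15.7 and 22.8 CPM.

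Genes with a like pattern were sought among 11710 genes with at least 500 UMIs, by Pearson's r over the 18 class and library sums, each class centred on its own mean. The sums share 3 libraries and are not independent. Within the set, Fkbp5 and Hif3a were the most alike at r = 0.96, Fkbp5 and Zbtb16 gave 0.87 and Fkbp5 and Tsc22d3 0.78. The receptors gave 0.79 with each other. Nr3c1 gave −0.40 with Fkbp5, −0.51 with Zbtb16 and −0.46 with Tsc22d3.

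Outside the set, the nearest gene to Fkbp5 was the clock gene Per1 at r = 0.93, which stood at 64.3, 117 and 102 CPM in microglia and 23.8, 58.7 and 39.0 CPM in astrocytes. The nearest to Zbtb16 was Chka at 0.97, with 96.8, 196 and 195 CPM in endothelial cells, the nearest to Errfi1 Tsc22d4 at 0.95, the nearest to Nr3c2 Arap2 at 0.98, and the nearest to Klf9 Msl1 at 0.93. The nearest to Hif3a was Lin52 and to Nr3c1 Gm39214, both at 0.92, and to Sgk1 Itgad at 0.91. No gene reached 0.9 with Tsc22d3. The value of Arap2 rests much on neuroblasts at 24 h, where it had 2 UMIs and Nr3c2 had 1: over the 15 sums of the other classes, a choice made after the values were seen, r was 0.76. Over these sums the receptors gave 0.76 with each other. Nr3c1 gave −0.65 with Fkbp5, −0.69 with Zbtb16 and −0.87 with Tsc22d3, and Nr3c2 with Tsc22d3 went from 0.08 to −0.63. Fkbp5 gave 0.96 with Hif3a, 0.88 with Zbtb16 and 0.79 with Tsc22d3.

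Since several members moved together, the promoters of the set were searched for the letters that the receptor is known to bind. RefSeq promoters on GRCm38.p6, 250 bases before to 50 bases after a start, were at hand for 7 of 9 genes, with 15 promoters. There were none for Zbtb16 and Nr3c1. On both strands, 3 motifs were searched: the full palindrome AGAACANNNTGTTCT, its core ACANNNTGT, which lies inside it, and a single arm TGTTCT, which forms each end of it. Among 32851 promoters of 300 bases the full palindrome was in 3 (0.00913%), of Acnat2, Gm35041 and Sgk1, the core in 2249 (6.85%) and the arm in 6233 (19%).

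Of the 15 promoters of the set, 1 held the full palindrome, 2 the core, both of Sgk1, and 4 the arm, 3 of Sgk1 and 1 of Tsc22d3. An Sgk1 promoter with the full palindrome at positions 62 to 76, a Tsc22d3 promoter with an arm and the Fkbp5 promoter with none are shown to let these letters be read in place. Capitals mark any of the 3 motifs. They lie at chr10:21993640-21993939 (plus strand), chrX:140600473-140600772 (minus strand) and chr17:28486100-28486399 (minus strand). The Sgk1 and Fkbp5 windows lie inside the span of their genes, and the Tsc22d3 window covers the upstream end of its gene. A match is a description of letters, not evidence of binding, and no match says only that they are absent from this window.
Sgk1: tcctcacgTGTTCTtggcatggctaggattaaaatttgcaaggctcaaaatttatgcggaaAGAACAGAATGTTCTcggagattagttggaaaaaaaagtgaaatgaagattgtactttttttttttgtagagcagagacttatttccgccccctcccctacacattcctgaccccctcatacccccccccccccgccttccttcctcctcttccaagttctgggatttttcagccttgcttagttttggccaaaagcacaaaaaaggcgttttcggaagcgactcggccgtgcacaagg
Tsc22d3: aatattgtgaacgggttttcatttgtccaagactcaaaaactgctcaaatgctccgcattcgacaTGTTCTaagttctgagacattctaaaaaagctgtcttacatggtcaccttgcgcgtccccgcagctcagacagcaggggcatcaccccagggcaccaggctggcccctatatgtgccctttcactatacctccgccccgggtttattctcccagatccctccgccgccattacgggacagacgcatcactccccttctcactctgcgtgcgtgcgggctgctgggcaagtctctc
Fkbp5: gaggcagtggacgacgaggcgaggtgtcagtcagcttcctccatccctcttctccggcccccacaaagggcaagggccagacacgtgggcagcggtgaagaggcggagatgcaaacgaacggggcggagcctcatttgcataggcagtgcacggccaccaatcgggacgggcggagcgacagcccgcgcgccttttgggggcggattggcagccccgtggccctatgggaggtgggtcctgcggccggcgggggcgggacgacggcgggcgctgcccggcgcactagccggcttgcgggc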

How the data were processed

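Single-cell RNA sequencing libraries of naive mice and of 2 TIA groups (24 h, 3 d) were used, 1 per group with the cells of 3 mice pooled. The deposited values are whole UMI counts per gene and cell barcode, which the authors made with Cell Ranger on mm10 with GENCODE vM23. The file headers give version 7.1.0, and the submitters' processing notes give 3.1.0. No normalization had been applied.

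Cells with under 500 genes or over 7% mitochondrial UMIs and genes in under 3 cells were left out. Cells were clustered in Seurat 5.3.0 (R 4.3.3) on 2000 variable features and 20 principal components at resolution 0.5, with UMIs and mitochondrial share regressed out. A cluster was named when at least 3 markers of a type were in at least 10% of its cells and 2-fold above the other clusters, thresholds set with these clusters known. Sums, intervals and ratios were computed in Python 3.11.15 with scipy 1.17.1. A library at 0 UMIs was set to 3 UMIs, and no ratio was given with both at or under 3. Ratios, intervals and calls were tested on simulated data.

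The members and lists were chosen with earlier results of these data known. The genes named are the 9 members, the highest and lowest genes of each further list (per comparison for the other targets, over all comparisons for the 3 shorter lists, where the plan had each comparison), and up to 3 genes most like each member at r of at least 0.9. Other genes of these lists were chosen after their values were seen. The alternatives were 11: a filter on both limits together, doublets left out (Scrublet in scanpy 1.11.5, used for this only, which called 122, 6 and 141 cells), resolutions of 0.2 and 1, clustering without the listed genes, median-ratio scaling, equal weight per cell, cells low in markers of other classes, the 5 richest cells left out, a minimum of 100 UMIs, and a limit of 1.5-fold. Positions are on GRCm38.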

Additional observations from a re-analysis of the deposited data

Results flagged for a closer look

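Sgk1 went opposite ways in different classes against the same naive library. Its log2 ratio at 24 h was 3.97 in oligodendrocytes and −1.21 in neuroblasts, and at 3 d 2.95 in oligodendrocytes and −0.57 in astrocytes. In microglia it was 0.23 at 24 h and −0.19 at 3 d. These differences between classes and times were not tested, and the negative values in neuroblasts and astrocytes are those that depend on doublets.

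Members also lay 2-fold or more from naive in cells outside the 6 classes, some of them with an interval that holds 0. Cluster 8, unnamed because of a median depth of 2051 UMIs, held 298, 25 and 148 cells of the naive, 24 h and 3 d libraries, and showed Fkbp5 at 3.14 and 1.64 and Tsc22d3 at 1.16 (−0.59 to 2.57) and 1.77, and at 24 h Nr3c2 at −1.02 (−2.36 to 0.06) and Errfi1 at −1.22 (−4.31 to 0.70). Cluster 10, unnamed because genes of border-associated macrophages led in cells with microglial markers, held 103, 34 and 167 cells, and showed Fkbp5 at 2.71 and 2.00, Zbtb16 at 1.54 and 1.51, Tsc22d3 at 1.51 and Klf9 at 1.62 at 24 h, and Hif3a at 1.38 (−0.14 to 3.36) at 3 d.

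Cluster 12, led by Ecrg4, Thbs4 and hemoglobin genes, held 98, 25 and 98 cells. It showed Fkbp5 at 3.103 and 1.82, Zbtb16 at 2.02 and 2.22, Hif3a at 2.26 and 1.92, Klf9 at 1.55 at 24 h, and Sgk1 lower at 24 h, at −1.34 (−2.72 to −0.20) from 54 naive and 7 TIA UMIs. Cluster 13, fibroblast-like, held 9, 2 and 11 cells, and Klf9 at 24 h, at 2.15, rests on the 2 cells of that library. At 3 d it showed Nr3c2 at 2.02 (0.71 to 3.59) and Errfi1 at −2.79 (−4.77 to −1.26).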

How the results depend on the processing

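No paired analysis was possible because each group has 1 library. Numbers of members called are given as reported and under an alternative, with the share of all genes then called in brackets. With cells low in markers of other classes, higher members were 2 in place of 4 in endothelial cells at 24 h (4.77%) and 2 in place of 3 at 3 d (4.69%; Fkbp5 and Hif3a lost, Errfi1 gained), 1 in place of 3 in pericytes at 24 h (7.75%) and 0 in place of 3 at 3 d (3.31%), and in neuroblasts 0 were lower in place of 2 at 24 h (4.05%) and 0 higher in place of 1 at 3 d (0.566%). Sgk1 in neuroblasts at 24 h turned from −1.21 to 0.10. That choice kept 20, 50 and 33 pericytes and 54, 60 and 123 endothelial cells, so fewer genes reached 30 UMIs. With a minimum of 100 UMIs, higher members were 2 in place of 4 in microglia at 24 h (1.19%) and 1 in place of 3 in pericytes at 3 d (3.37%), and in neuroblasts 1 was lower at 24 h (3.47%) and 0 higher at 3 d (0.0882%).

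With a limit of 1.5-fold, 5 in place of 3 were higher in endothelial cells at 3 d (11.3%), 6 in place of 3 in pericytes at 3 d (15.5%) and 3 in place of 1 in neuroblasts at 3 d (3.65%), and 1 in place of 0 was lower in pericytes at 24 h (8.67%). This limit also added Klf9 and Errfi1 as higher in astrocytes at 24 h (9.58%) and Klf9 in microglia at 3 d (5.59%). It added Nr3c1 as lower in neuroblasts at 24 h (16.1%). The 2 lower in neuroblasts at 24 h became 4 with cells crossing both limits left out (10.3%), 5 at resolution 0.2 (10.2%), 5 without the 5 richest cells (22.8%), 1 with equal weight (10.4%) and 0 without doublets (4.87%). The 1 higher there at 3 d became 2 at resolution 0.2 (0.526%), 2 when clustered without the listed genes (0.518%) and 0 without the 5 richest cells (0.467%). Without doublets Hif3a is lost there at 3 d and Nr3c2 is called higher. Where fewer UMIs do not show the cause, the cause was not tested. Low UMI sums limit Hif3a outside astrocytes and oligodendrocytes, and naive Fkbp5 and Zbtb16 in pericytes. The small number of cells (112) limits the neuroblast values at 24 h.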

Other observations

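Dividing progenitors (cluster 9), with 169, 35 and 175 cells in the naive, 24 h and 3 d libraries, held Fkbp5 at 68.4, 86.9 and 78.3 CPM. The log2 ratio was 0.35 (−0.08 to 0.76) at 24 h and 0.20 (−0.07 to 0.46) at 3 d, both within counting error of naive.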
